A study of Homo sapiens with 6 samples.

Results

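The genes described here are those that the Gene Ontology (GO) column of the deposited table places in the collagen-containing extracellular matrix, the meshwork of collagens, glycoproteins and bound proteins outside cells. In the table, 317 of 31142 genes carried the term. Genes that the KEGG column also listed under lysosome or protein processing in endoplasmic reticulum, and genes whose name starts with HSP, were left out, which removed 14 genes. Of the remaining 303 genes, the 84 members were chosen by their level, a mean of at least 1 FPKM (mapped fragments for each kilobase of a gene's transcript, corrected for library size) over the 6 libraries, and the other 219 were below that minimum. The level of the members is therefore a description of how they were selected. The lowest members were LGALS3 at 1.07 FPKM, GH1 at 1.04 and FBLN2 at 1.04, and the highest genes left out for their level were EMILIN1 at 0.999 FPKM, VWA1 at 0.943 and AGT at 0.809.

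RNA was sequenced from SKM-1, an established human acute myeloid leukemia line derived from a myelodysplastic syndrome, in 3 libraries of the genotype S34F mutant U2AF1 and 3 of the genotype wild type (WT), all taken at 96 h. U2AF1 is the smaller subunit of the splicing factor that binds the 3′ end of introns, and the study asked what its S34F substitution changes in gene expression. By the study's methods both forms were introduced as FLAG-tagged copies in a lentiviral vector under a ubiquitin promoter with puromycin selection, so that the endogenous U2AF1 remained in both groups. The WT samples also carry the prefix NC, which the study uses for negative controls, and the extraction protocol names a vehicle control, while the study's text and the titles speak of cells expressing wild-type U2AF1, so the sources differ on what the WT cells received. U2AF1 itself was at 9.24, 9.48 and 9.18 FPKM in S34F and 8.67, 8.70 and 7.65 FPKM in WT, values that do not separate the mutant from the wild-type transcript. The study speaks of paired, independent RNA samples, but neither it nor the labels say that they came from separate cultures, so p-values measure the spread between these libraries, which may be technical.

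The libraries held between about 21.1 M and 26.6 M fragments, read from the value of 1 fragment in single-exon genes. Replicate 3 of S34F, and to a lesser degree replicate 3 of WT, stood apart from the other libraries of their group, and values without S34F replicate 3 or both libraries are given beside results that change without them. Of 14 erythroid marker genes, 14 were at 1 FPKM or more with a median of 262 FPKM, whereas 8 of 12 monocytic markers were below 1 FPKM, with MPO and CSF1R at means of 0.00370 and 0.0232 FPKM. The other 4 were CD68 at 46.3 FPKM, LYZ at 15.7, CD33 at 2.44 and ITGAM at 2.42. All 10 fibroblast and stromal markers found were below 1 FPKM, with a summed level of 0.0824 to 0.269 FPKM in the S34F libraries and 0.123 to 0.573 FPKM in the WT libraries. The erythroid markers were thus high for a line labelled as myeloid leukemia, the monocytic markers were mixed and the stromal markers nearly absent. In a bulk sample, fewer cells of a type and less RNA per cell cannot be told apart.

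The matrix has a core of collagens, laminins and other glycoproteins, and proteoglycans. Bound to this core are secreted growth factors, protease inhibitors, lectins such as the galectins, and calcium-binding proteins such as the annexins and S100 proteins, many of which also work inside the cell. In bone marrow most of the core is laid down by stromal cells, and blood-forming cells attach to it through integrins and other receptors. S100A4, S100A6 and COL23A1 had the smallest p-values among the members, and S100A4 and S100A6 are neighbors on chromosome 1, so the 250 bases before their annotated starts are shown, from RefSeq on GRCh38.p14, in the direction of the gene. The S100A4 stretch is chr1:153545807-153546056, the S100A6 stretch chr1:153535992-153536241 and the COL23A1 stretch chr5:178590394-178590643, each on the minus strand. RefSeq and GENCODE 29, used for gene positions below, place starts differently. By GENCODE 29 the S100A4 and S100A6 stretches lie within the gene, the S100A4 start being several kilobases further upstream, and most of the COL23A1 stretch does too. Capitals mark 3 motifs on either strand: TATAAA, the consensus of the box that places the start of transcription, its close variant CTATAA, and the core of the GC box, GGGCGG.
S100A4: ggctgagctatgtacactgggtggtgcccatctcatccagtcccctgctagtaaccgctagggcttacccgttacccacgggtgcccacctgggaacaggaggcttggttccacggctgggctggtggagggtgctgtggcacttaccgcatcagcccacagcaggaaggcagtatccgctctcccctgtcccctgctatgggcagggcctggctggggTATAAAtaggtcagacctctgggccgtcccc
S100A6: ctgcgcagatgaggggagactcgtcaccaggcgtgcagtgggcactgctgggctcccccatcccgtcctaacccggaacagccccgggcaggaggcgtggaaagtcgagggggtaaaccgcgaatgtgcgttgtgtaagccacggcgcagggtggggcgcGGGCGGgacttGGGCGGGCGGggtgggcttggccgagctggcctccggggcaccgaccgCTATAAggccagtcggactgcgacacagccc
COL23A1: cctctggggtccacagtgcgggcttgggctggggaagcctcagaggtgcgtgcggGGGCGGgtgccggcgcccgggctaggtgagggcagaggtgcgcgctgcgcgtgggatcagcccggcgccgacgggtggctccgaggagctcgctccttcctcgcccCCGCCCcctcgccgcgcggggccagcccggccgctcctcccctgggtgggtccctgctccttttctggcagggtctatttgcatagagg

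The S100A4 stretch held TATAAA from 31 to 26 bases before the start and no GGGCGG. In S100A6, CTATAA stood at the same distance, from 31 to 26 bases before the start, with 3 copies of GGGCGG between 90 and 70 bases before it, of which a pair overlap. COL23A1 held neither TATA-like motif and had GGGCGG 195 to 190 bases before the start and its reverse complement 89 to 84 bases before it. Over both strands, TATAAA was present in 10.7% of the 35116 promoter stretches of the same length, CTATAA in 5.94% and GGGCGG in 42.6%. TGANTCA, the letters bound by AP-1, was found in 6.57% of all stretches and CCAAT in 32.0%, and neither was in these 3. Such matches are letters in a window and say nothing of which factor binds. An entry was found for 69 of the 84 members, and LGALS1 and CCN1 had none.

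Of the collagen genes, COL18A1 and COL23A1 were among the members. Over all members, the median of the mean levels was 6.04 FPKM. The minimum of 1 FPKM bears on this, as it does on the median of 5.31 FPKM of the 10942 genes tested. Only APOE, HDGF and TGFB1 were at 100 FPKM or more, 27 members were between 10 and 100, 34 between 2 and 10, and 20 between 1 and 2. Of 38 collagen genes with the term, 28 had a mean below 0.1 FPKM and 2 were members. These were COL18A1, a basement membrane collagen and the precursor of endostatin, at 37.1 FPKM, and COL23A1, a collagen anchored in the plasma membrane, at 1.22 FPKM. No nidogen passed the minimum, and the group of laminins and nidogens held LAMB3, LAMA5 and LAMB2, chains of laminins, and TINAGL1, at 3.32 to 6.46 FPKM. The GO term for the basement membrane was wider and was carried by 11 members, among them COL18A1, ANXA2, SERPINF1, AGRN and SPARC.

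Most members were also annotated as secreted or carried by vesicles. The GO column placed 56 of the 84 members in the extracellular exosome, 66.7% against 13.3% of the 9002 annotated genes tested, and 55 in the extracellular space, 65.5% against 4.21%. Calcium ion binding was listed for 23 members, heparin binding for 18 and platelet degranulation for 17. The term for a structural constituent of the matrix was held by 23 members, and by no other gene tested. These shares follow in part from the term that chose the members and are given as a description.

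**Figure D1:**
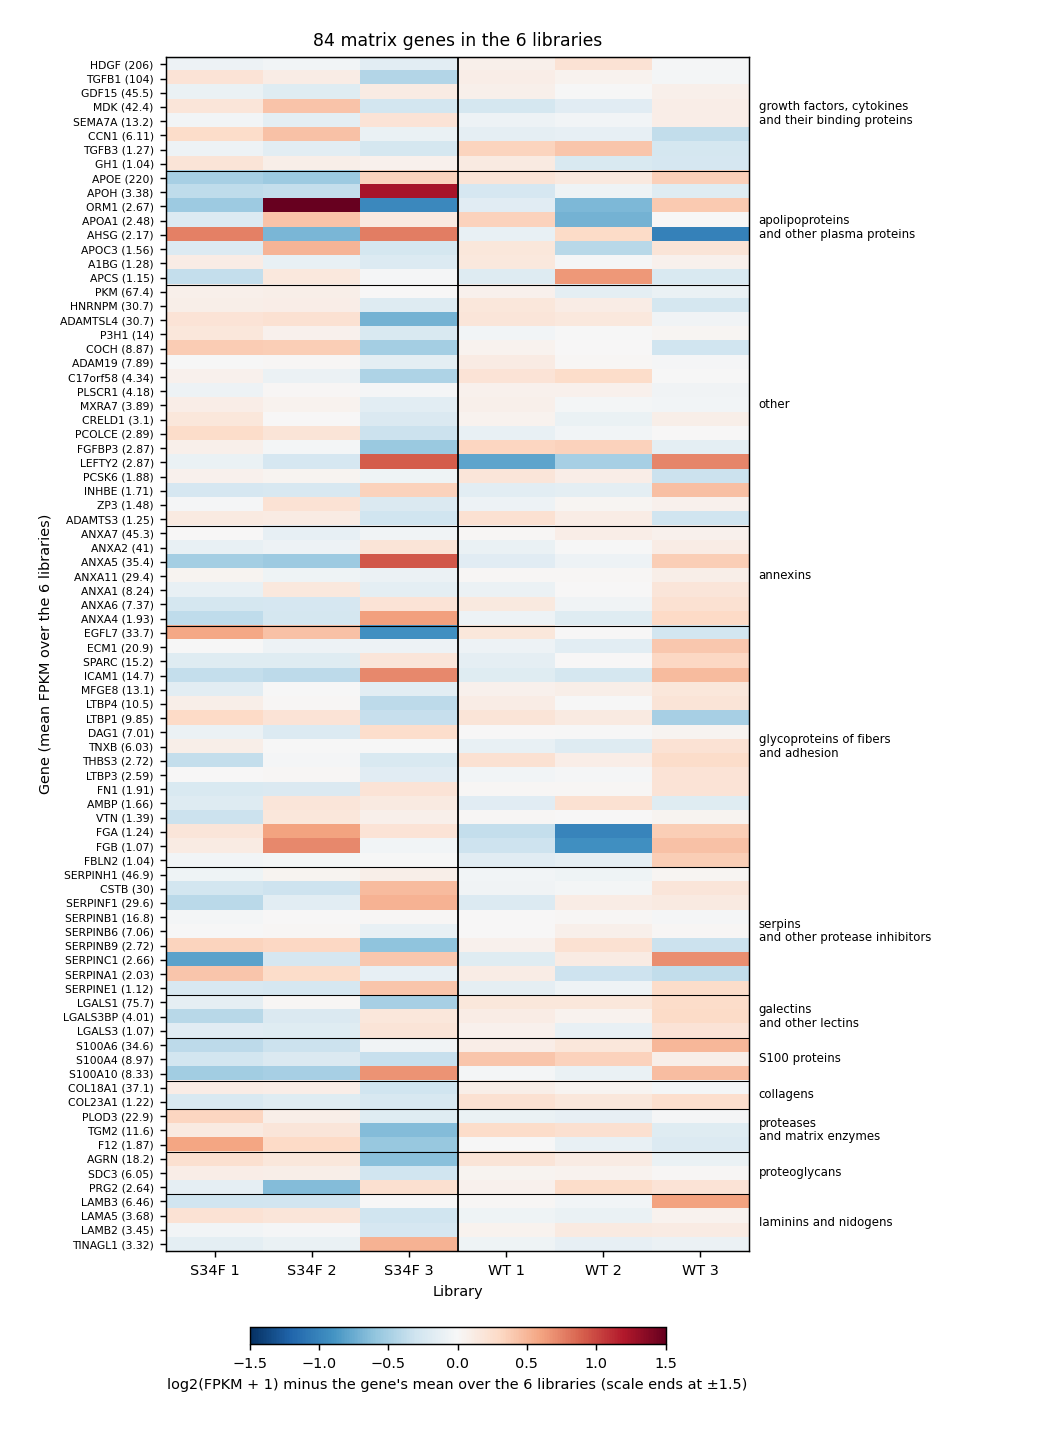
Each row is 1 of the 84 genes, with its mean FPKM in brackets and its group at the right, and each column is a library. Color gives log2(FPKM + 1) minus the gene's mean over the 6 libraries, and the strongest colors are those of ORM1, APOH, AHSG, FGA and FGB in single libraries and of ANXA5, LEFTY2 and EGFL7 in replicate 3.

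Together the members made up 1459, 1471 and 1520 FPKM in the S34F libraries and 1592, 1592 and 1653 FPKM in the WT libraries, between 0.427% and 0.467% of all FPKM. Every S34F sum was below every WT sum, and the ratio of the group means was 0.920. APOE and HDGF carried much of this difference. Without APOE the sums were 1308, 1325 and 1252 FPKM in S34F and 1347, 1357 and 1379 FPKM in WT, and without both genes the groups overlapped, with 1069 to 1125 FPKM in S34F and 1118 to 1177 FPKM in WT.

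Differences between S34F and WT were small for most members, and those with the smallest p-values were mostly lower in S34F. In limma on log2(FPKM + 1), 6 of the 84 members had an unadjusted p under 0.05, 5 lower and 1 higher in S34F. This is 7.14% of the members, against 2.39% of all 10942 genes tested, and for the lower direction alone 1.57% of all genes. The 5 lower members were S100A4, S100A6, LGALS1, THBS3 and COL23A1, and the higher member was CCN1. After Benjamini-Hochberg adjustment over all genes 0 members had a p under 0.05 in limma, as did 0 of all genes tested, and every adjusted p among the members was 1.00. By the study's definition of a differentially expressed gene, a fold change above 1.5 with an unadjusted p under 0.05, 0 members and 0.585% of all genes were called when the fold was taken on the FPKM + 1 scale. This count depends on the scale: at a pseudocount of 0.1 it was 2 members and at 0.5 it was 1, and the share of all genes was not counted there. In direction, 56 members were lower and 28 higher in S34F, beside 4969 lower and 5973 higher of the 10942 genes tested. Their log2 fold changes had a median of −0.0539, and those of all genes tested 0.0145.

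The 2 groups did not overlap for 10 members, 9 of them lower in S34F, which is 11.9% of the members against 7.38% of all genes tested, and 3.73% for the lower direction. Beside the 6 named above these were HDGF, ANXA7, MFGE8 and LAMB2. In 23 members all 3 pairs of libraries with the same replicate number were lower in S34F, against 12% of all genes tested. With the replicate number as a block, 14 members had an unadjusted p under 0.05, 11 of them lower, against 4.05% and, for lower genes, 2.46% of all genes. They included all 6 members called without the block, and 0 members had an adjusted p under 0.05 in either fit. APOE, SERPINA1, LAMB3, C17orf58, LGALS3BP, FGFBP3, SERPINC1 and LEFTY2 were the 8 added.

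**Figure D2:**
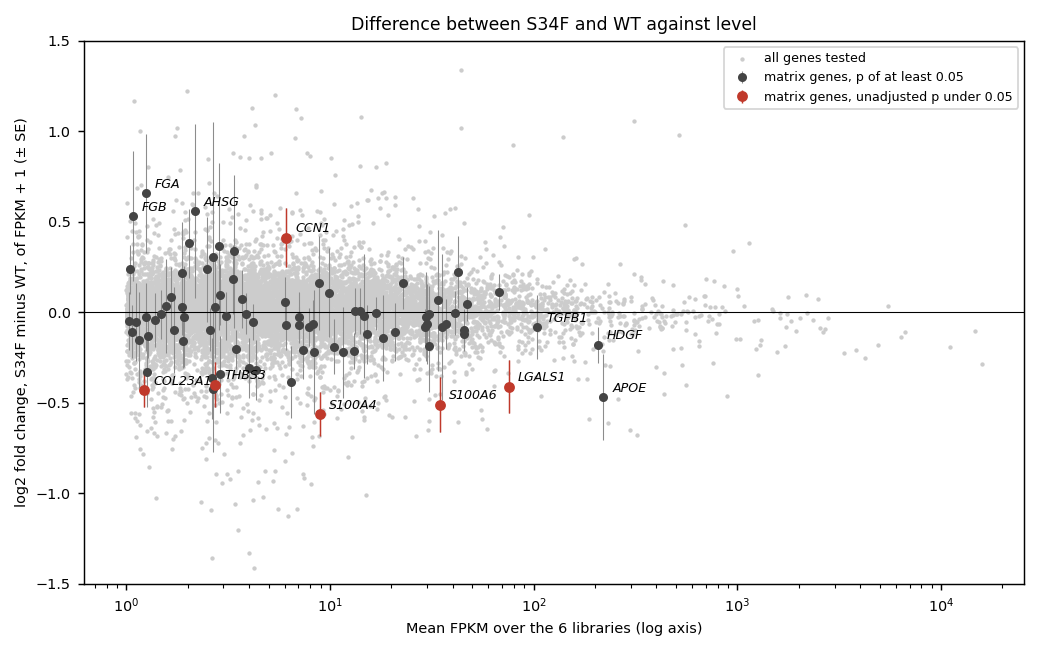
Each gray point is a gene tested, dark points are matrix genes and red points the 6 with an unadjusted p under 0.05. The log2 fold change of FPKM + 1, S34F minus WT, is plotted with its SE for the matrix genes against mean FPKM on a log axis, and 14 other genes lie beyond the drawn range of ±1.5. The 5 red points below 0 lie between −0.40 and −0.56.

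Among the S100 proteins, small and mostly calcium-binding proteins with 3 members here, the levels of S100A4 and S100A6 were lower in every S34F library than in every WT library. S100A4, which binds non-muscle myosin, lies at chr1:153543613-153550136 on the minus strand, in the GENCODE 29 annotation of GRCh38 used for all gene positions. It was at 7.05, 7.38 and 6.66 FPKM in S34F and 12.04, 11.4 and 9.34 FPKM in WT. The 3 S34F values lay close together and below the lowest WT value, with group means of 7.03 ± 0.359 and 10.9 ± 1.41 FPKM (SD, n = 3 each) and a ratio of 0.644. The log2 fold change was −0.56 ± 0.12 (SE), with an unadjusted p of 0.00264, an adjusted p of 1.00 and an exact two-sided permutation p of 0.1, the smallest that 3 libraries against 3 can give. S100A3 lies within the same stretch and strand as S100A4 and was nearly silent, at a mean of 0.0751 FPKM.

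S100A6, also known as calcyclin, lies at chr1:153534599-153536244, next to S100A5 and S100A4. It was at 25.5, 26.9 and 32.6 FPKM in S34F and 36.3, 38.2 and 48.3 FPKM in WT. Replicate 3 was the highest in both groups, and S100A6 was lower in S34F in each of the 3 pairs. The means were 28.4 ± 3.75 and 40.9 ± 6.47 FPKM (SD, n = 3 each), the log2 fold change −0.51 ± 0.15 (SE) and the unadjusted p 0.0122, or 0.00157 with the replicate block. With all libraries the remaining member, S100A10, the partner of annexin A2, did not share this pattern. It was at 5.20, 5.31 and 13.2 FPKM in S34F and 7.72, 7.31 and 11.2 FPKM in WT. Replicate 3 was high in both groups and S34F replicate 3 was the highest of all. Its log2 fold change was −0.22 with an unadjusted p of 0.538. The log2 differences within its pairs were −0.49, −0.40 and 0.22. When S34F replicate 3 was dropped, S100A10 was at −0.62 on the log2 scale (unadjusted p 0.0169), beside −0.61 for S100A6. The contrast with S100A6 thus rested on this 1 library.

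S100A4 and S100A6 belong to the cluster of S100 genes on chromosome 1, whose other genes are given for comparison. The closest of them, S100A5, S100A3 and S100A2, were below the minimum and were not tested, so the comparison cannot check the immediate neighborhood. Of the cluster genes, S100A11 was the most abundant, at 133, 137 and 186 FPKM in S34F and 152, 154 and 198 FPKM in WT. It was lower in S34F in each of the 3 pairs, with an unadjusted p of 0.409. S100A16 had a log2 fold change of 0.09 and S100A13 of 0.23, and S100A1 of −0.25 with an unadjusted p of 0.0840. S100A8 and S100A9, markers of monocytes and granulocytes, were nearly absent, at means of 0.0137 and 0.184 FPKM. Of the 7 cluster genes tested, the 2 with an unadjusted p under 0.05 were S100A4 and S100A6.

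**Figure D3:**
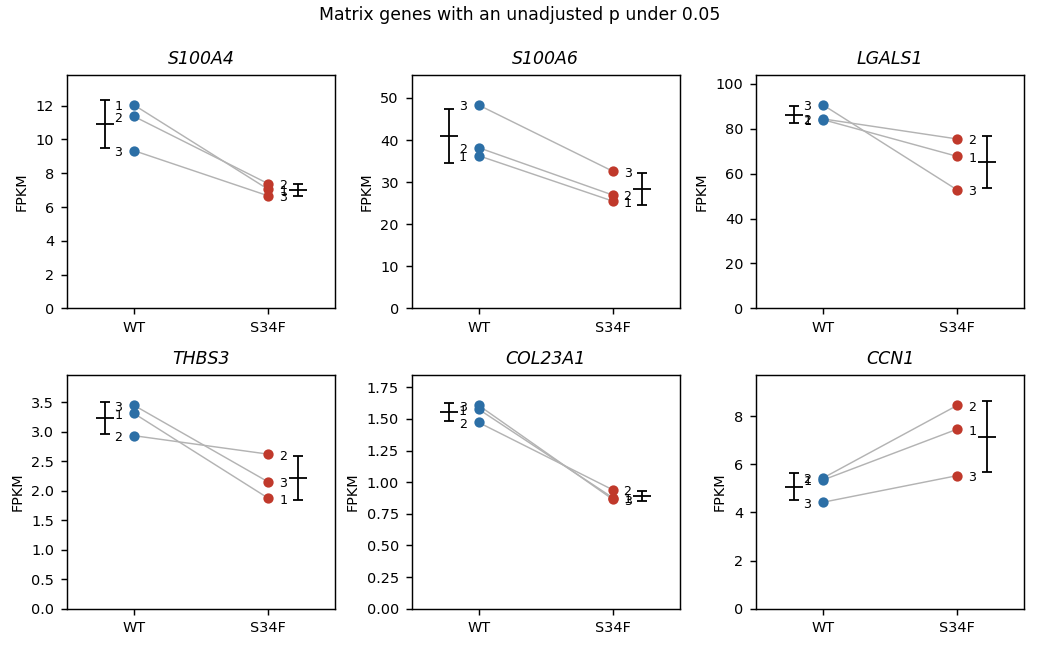
FPKM of the 6 members with an unadjusted p under 0.05 in each library, with gray lines joining libraries of the same replicate number (1, 2 or 3) and black bars giving the mean ± SD of each group. All S34F points lie below all WT points for S100A4, S100A6, LGALS1, THBS3 and COL23A1, and above them for CCN1.

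Among the galectins and related lectins, all 3 members were lower in S34F in each of the 3 pairs, and 1 had an unadjusted p under 0.05. LGALS1, galectin-1, which binds sugars of cell surface and matrix glycoproteins, lies at chr22:37675608-37679806. It was at 67.6, 75.4 and 52.7 FPKM in S34F and 84.0, 84.3 and 90.5 FPKM in WT. The WT libraries lay close together and S34F replicate 3 was the lowest value, so that the log2 fold change of −0.41 ± 0.15 (SE, unadjusted p 0.0256) was −0.27 without that library, with an unadjusted p of 0.0204. Leaving out any of the WT libraries moved the unadjusted p to between 0.0562 and 0.0741. LGALS3BP, a ligand of galectin-3, was at 2.72, 3.25 and 4.54 FPKM in S34F and 4.35, 4.14 and 5.04 FPKM in WT. These ranges overlapped through replicate 3 of S34F, with an unadjusted p of 0.107, 0.0481 with the replicate block and 0.00768 without that library. LGALS3, galectin-3, was near the minimum, between 0.811 and 1.36 FPKM.

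The structural glycoproteins formed the largest named group, with 17 members, 11 lower and 6 higher in S34F and 1 with an unadjusted p under 0.05. THBS3, a thrombospondin, a pentameric calcium-binding glycoprotein, lies at chr1:155195588-155209051 and overlaps MTX1 on the other strand. It was at 1.88, 2.62 and 2.15 FPKM in S34F and 3.31, 2.94 and 3.45 FPKM in WT. The groups did not overlap, the log2 fold change was −0.40 ± 0.12 (SE) and the unadjusted p 0.0149, but the unadjusted p was 0.0579 without S34F replicate 1 and 0.0681 without both libraries of replicate 3. MFGE8, a bridge between cells and phosphatidylserine, was at 11.6, 12.99 and 11.6 FPKM in S34F and 13.7, 13.9 and 14.8 FPKM in WT, without overlap, with an unadjusted p of 0.0727.

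Fibronectin, FN1, a main ligand of integrins, was low, at 1.47, 1.47 and 2.34 FPKM in S34F and 1.92, 1.91 and 2.33 FPKM in WT. SPARC, a collagen-binding glycoprotein, was at 13.2 to 17.2 FPKM in S34F and 13.7 to 19.0 FPKM in WT and was lower in S34F in each of the 3 pairs. With all libraries neither passed an unadjusted p of 0.05, at 0.332 and 0.481, and without S34F replicate 3 FN1 had a log2 fold change of −0.30 and an unadjusted p of 0.0269. LTBP1, which holds latent TGF-β in the matrix, was higher in S34F in each pair, at 12.1, 11.3 and 7.33 FPKM against 11.1, 10.7 and 6.55 FPKM. Its groups overlapped, replicate 3 being low in both. The related LTBP4 and LTBP3 were at means of 10.5 and 2.59 FPKM, with log2 fold changes of −0.19 and −0.10 and unadjusted p-values of 0.252 and 0.440.

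Of the 2 collagens, both were lower in S34F and 1 had an unadjusted p under 0.05. COL23A1 lies at chr5:178237618-178590555 and was at 0.877, 0.940 and 0.864 FPKM in S34F and 1.58, 1.47 and 1.61 FPKM in WT. Replicates lay close together within each group, at 0.894 ± 0.0403 and 1.55 ± 0.0709 FPKM (SD, n = 3 each), a ratio of 0.576. The log2 fold change on the log2(FPKM + 1) scale, which understates the change of such a low gene, was −0.43 ± 0.09 (SE), with an unadjusted p of 0.00257. COL23A1 reached the minimum through WT alone, so its place among the members owed something to the difference itself, and its lowest library held about 26.8 fragments. COL18A1 was at 40.0, 39.5 and 29.7 FPKM in S34F and 39.2, 38.1 and 36.2 FPKM in WT, and the groups overlapped, with an unadjusted p of 0.650 and a log2 fold change that turned from −0.07 to 0.07 without S34F replicate 3.

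Members near the minimum could pass it through 1 group. FGA, FGB and GH1 had a mean of at least 1 FPKM in S34F alone, and TGFB3, COL23A1, LGALS3 and FBLN2 in WT alone. Of the 77 members with a mean of at least 1 FPKM in both groups, 5 had an unadjusted p under 0.05, beside 2.39% of all genes tested. Of the 64 members at 2 FPKM or more the number was also 5, 4 of them lower.

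The growth factors and cytokines held the most abundant members after APOE, and the 1 member with a higher level in S34F and an unadjusted p under 0.05. CCN1, a matricellular protein that binds integrins, lies at chr1:85580761-85583962. It was at 7.46, 8.45 and 5.53 FPKM in S34F and 5.35, 5.43 and 4.42 FPKM in WT. Replicate 3 was the lowest of each group, and the lowest S34F value was barely above the highest WT value. The ratio of means was 1.41, the log2 fold change 0.41 ± 0.16 (SE) and the unadjusted p 0.0399, or 0.0111 with the replicate block. Without S34F replicate 1 or 2 the unadjusted p was 0.105 or 0.132, and without a WT library it lay between 0.0621 and 0.120.

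HDGF, a heparin-binding growth factor that is mostly nuclear, was at 196, 200 and 184 FPKM in S34F and 216, 239 and 202 FPKM in WT. The groups did not overlap, but the difference was small, with a ratio of 0.881, a log2 fold change of −0.18 and an unadjusted p of 0.116. TGFB1, the cytokine stored in the matrix by the LTBP proteins, was at 119, 112 and 76.0 FPKM in S34F and 111, 107 and 101 FPKM in WT. Its groups overlapped and the difference turned with 1 library: the log2 fold change was −0.08 with all libraries and 0.12 without S34F replicate 3. The table lists this gene under a symbol of a gene on the opposite strand, and reads of overlapping genes cannot be told apart where strand was not used in counting. TGFB3 was near the minimum, at 1.12, 0.999 and 0.857 FPKM in S34F and 1.82, 1.98 and 0.854 FPKM in WT. Here WT replicate 3 was as low as its S34F counterpart, and the unadjusted p was 0.133. MDK, midkine, a heparin-binding growth factor, was at 47.3, 56.5 and 34.1 FPKM in S34F and 34.5, 36.9 and 44.8 FPKM in WT. Pairs 1 and 2 were higher in S34F and pair 3 lower, with an unadjusted p of 0.308, or 0.0294 without S34F replicate 3. GDF15 and SEMA7A were at means of 45.5 and 13.2 FPKM with log2 fold changes of −0.10 and 0.01, or −0.19 and −0.09 without S34F replicate 3, where GDF15 had an unadjusted p of 0.0488.

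The apolipoproteins and plasma proteins were dominated by APOE, the lipid carrier and the most abundant member. It was at 151, 146 and 268 FPKM in S34F and 244, 235 and 274 FPKM in WT. S34F replicates 1 and 2 lay well below WT, whereas replicate 3 lay among the WT values, so the groups overlapped, with a log2 fold change of −0.47 ± 0.24 (SE) and an unadjusted p of 0.0887. The log2 differences within pairs were −0.69, −0.69 and −0.03, and the replicate block gave an unadjusted p of 0.0315. Without S34F replicate 3 the log2 fold change was −0.75 with an unadjusted p of 0.000223 and an adjusted p of 0.125 in limma, so this 1 library decided whether APOE passed.

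The other plasma proteins are typical products of liver, and their values jumped between libraries. ORM1, an acute-phase glycoprotein, was at 0.914, 9.84 and 0.430 FPKM in S34F and 1.47, 0.744 and 2.64 FPKM in WT. FGA and FGB, chains of fibrinogen, moved together, at 0.0631 and 0.0276 FPKM in WT replicate 2 and at 2.20 and 2.20 FPKM in S34F replicate 2. Of 14 liver-type members, a list made after their values were seen, 11 had a highest library more than 2 times their lowest, against 19.4% of all genes tested, and 14 had fewer than about 50 fragments in their lowest library. Their summed level was 23.8, 36.2 and 30.5 FPKM in S34F and 22.9, 20.8 and 25.4 FPKM in WT. A list of 16 further liver genes was also made after the values were seen. Its highest gene was ALB, the defining liver product, at 8.16 to 14.4 FPKM. However, 12 of the 16 were below 1 FPKM, and the median of the list was 0.647 FPKM. In the fit without the block 0 of the 14 had an unadjusted p under 0.05, so the 6 members called there did not include them. With the block SERPINC1 and SERPINA1 passed, and without S34F replicate 3 F12 and SERPINA1, so these counts do include them, and their part in the members' spread was not tested.

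All 7 annexins, proteins that bind phospholipids when calcium is present, had negative log2 fold changes, between −0.21 and 0.00, and 0 had an unadjusted p under 0.05. ANXA7 was at 45.3, 41.3 and 43.5 FPKM in S34F and 45.8, 48.4 and 47.3 FPKM in WT. Its groups did not overlap, although the closest values differed by little, and the unadjusted p was 0.234. ANXA2 was nearly equal in both groups, at 37.7, 38.6 and 46.7 FPKM against 38.2, 40.6 and 44.2 FPKM. ANXA5, used as a probe of dying cells because it binds phosphatidylserine, was at 22.9, 22.3 and 64.0 FPKM in S34F and 29.3, 31.2 and 42.8 FPKM in WT. Replicate 3 was high in both groups, more so in S34F, and the unadjusted p was 0.847, or 0.0184 without S34F replicate 3, at a log2 fold change of −0.57. ANXA4, at a mean of 1.93 FPKM, was likewise highest in S34F replicate 3.

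The protease inhibitors held 9 members, 6 lower and 3 higher in S34F, and 0 had an unadjusted p under 0.05 without the block. SERPINH1, the collagen chaperone also known as HSP47, was at 44.7, 48.4 and 49.8 FPKM in S34F and 45.6, 44.8 and 48.0 FPKM in WT. It was steady across libraries, as was SERPINB1, an inhibitor of neutrophil proteases, at 16.5 to 17.1 FPKM. Their 95% confidence intervals, −0.18 to 0.27 and −0.22 to 0.21 on the log2 scale, lie within a fold of 1.5, as did those of 42 of the 84 members. The share of all genes tested was not counted. These intervals are on the log2(FPKM + 1) scale, which understates the change of low genes. For low members they do not bound the ratio of FPKM at 1.5. SERPINC1, antithrombin, was at 0.990, 1.91 and 3.59 FPKM in S34F and 2.06, 2.77 and 4.61 FPKM in WT. Each S34F library lay below the WT library of its number while the groups overlapped, and the unadjusted p was 0.255, and 0.0133 with the replicate block. SERPINA1, α1-antitrypsin, was higher in S34F in each pair, at 2.95, 2.60 and 1.73 FPKM against 2.20, 1.40 and 1.29 FPKM, with an unadjusted p of 0.0885, 0.0218 with the block and 0.0218 without S34F replicate 3.

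The laminin chains were low and mixed in direction. LAMB3, the β3 chain, was at 4.92, 4.96 and 6.34 FPKM in S34F and 6.39, 6.06 and 10.1 FPKM in WT. It was lower in each pair, with an unadjusted p of 0.0937, and 0.0189 with the block. LAMB2, the β2 chain, was at 3.32, 3.38 and 2.72 FPKM against 3.61, 3.86 and 3.82 FPKM, without overlap, and LAMA5, the α5 chain, had a log2 fold change of 0.07, or 0.24 with an unadjusted p of 0.0398 without S34F replicate 3. The 3 proteoglycans, AGRN, SDC3 and PRG2, were lower in S34F with unadjusted p-values of 0.566, 0.608 and 0.144. Without S34F replicate 3 SDC3 turned from −0.07 to 0.06 on the log2 scale, and PRG2 had an unadjusted p of 0.0174 at −0.58. AGRN, agrin, was at 21.1, 20.2 and 11.2 FPKM in S34F and 20.5, 19.4 and 16.6 FPKM in WT, and its direction rested on replicate 3, with a log2 fold change of −0.14 with all libraries and 0.13 without S34F replicate 3.

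Enzymes that shape collagen were present although few collagens were. PLOD3, a lysyl hydroxylase, was at 28.7, 24.2 and 19.9 FPKM in S34F and 21.1, 20.7 and 22.5 FPKM in WT, and without S34F replicate 3 its log2 fold change of 0.16 became 0.29 with an unadjusted p of 0.0305. P3H1, a prolyl 3-hydroxylase, was at a mean of 14.0 FPKM and PCOLCE, an enhancer of procollagen processing, at 2.89 FPKM, with log2 fold changes of 0.01 and 0.10. Without S34F replicate 3, PCOLCE was at 0.28 with an unadjusted p of 0.0208. TGM2, a cross-linking transglutaminase, was at 12.6, 12.97 and 6.85 FPKM in S34F and 13.9, 13.6 and 9.87 FPKM in WT, lower in each pair, with an unadjusted p of 0.410, and its log2 fold change of −0.22 became 0.05 without S34F replicate 3. PKM, the glycolytic pyruvate kinase and the most abundant member without a matrix role, was at 70.9, 71.5 and 67.3 FPKM in S34F and 70.6, 60.9 and 62.9 FPKM in WT, higher in each pair, with an unadjusted p of 0.306. The members without a common role numbered 17, 11 of them lower in S34F, and 3 of these passed an unadjusted p of 0.05 with the replicate block alone. C17orf58 was at 4.53, 3.97 and 2.81 FPKM in S34F and 5.08, 5.39 and 4.25 FPKM in WT, with a p of 0.0340 under the block. FGFBP3, a binding protein of fibroblast growth factors, was at 2.99, 2.71 and 1.58 FPKM against 3.74, 3.80 and 2.43 FPKM, with a p of 0.0175 under the block. LEFTY2, an inhibitor in the TGF-β family, was higher in S34F in each pair, at 2.28, 1.95 and 5.58 FPKM against 1.04, 1.49 and 4.87 FPKM, with a p of 0.0485 under the block.

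Replicate 3 differed from the other libraries in many members. In S34F, replicate 3 differed from the mean of replicates 1 and 2 by more than 1.5-fold in 26 members, 31% of them against 18.1% of all genes tested, and in WT in 11 members, 13.1% against 6.3%. In both groups, replicate 3 was above both other libraries in 23 members, 27.4% of them against 21.3% of all genes tested, and below both in 24 members, 28.6% against 29.4%. High in replicate 3 of both groups were LEFTY2, ANXA5, S100A10, ICAM1 and SERPINC1, and low in both were EGFL7, SERPINB9, LTBP1, TGM2 and COCH. EGFL7, a secreted protein of vessel-forming cells, was at 48.2, 43.6 and 16.4 FPKM in S34F and 35.9, 32.1 and 26.2 FPKM in WT. ICAM1, a ligand of leukocyte integrins, was at 10.7, 10.5 and 23.7 FPKM in S34F and 12.2, 11.5 and 19.9 FPKM in WT. In both EGFL7 and ICAM1, S34F replicates 1 and 2 lay close together, and replicate 3 differed from them by more than the groups differed from each other.

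**Figure D4:**
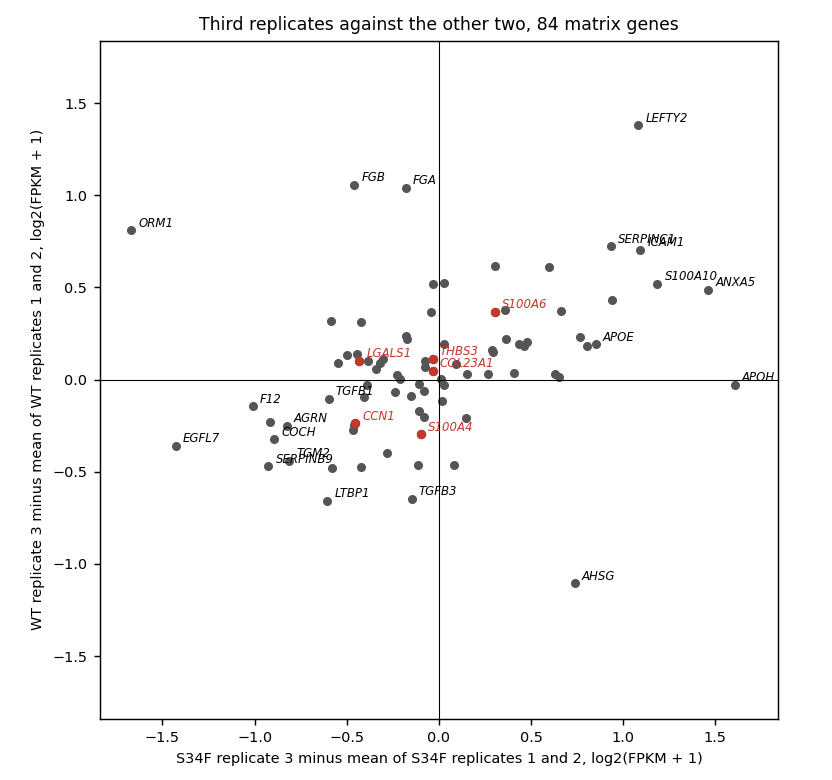
For each of the 84 genes, log2(FPKM + 1) in replicate 3 minus the mean of replicates 1 and 2, in S34F on the horizontal axis and in WT on the vertical axis, with the 6 members of an unadjusted p under 0.05 in red. LEFTY2, ANXA5, S100A10 and ICAM1 lie at the upper right and EGFL7, LTBP1 and SERPINB9 at the lower left, whereas ORM1, AHSG and APOH lie far out in 1 direction or in opposite ones.

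Leaving these libraries out changed how many members passed. Without S34F replicate 3, 23 members had an unadjusted p under 0.05, 14 of them lower, against 10.6% of all genes tested, and the groups did not overlap for 45 members, against 33.9% of all genes. Without both libraries of replicate 3, an alternative added after seeing the data, the numbers were 29 members against 16.9% of all genes, and 61 members against 51.5%. With 2 libraries a group the adjusted p of the first members was 0.0944 for APOE, 0.109 for S100A4 and 0.109 for S100A6 in limma. S100A10 and ANXA5, at log2 fold changes of −0.44 and −0.41, and COCH, a protein of the inner ear matrix, EGFL7 and MDK, at 0.35, 0.42 and 0.52, had an unadjusted p under 0.05 in both of these fits but not with all libraries. Whichever single library was left out, S100A4, S100A6 and COL23A1 kept an unadjusted p under 0.05, and these were the 3 members of which this held. These 3 also had the smallest p-values with all libraries, and the fits share libraries, so this is not separate support. The share of all genes tested that kept such a p was not counted. COL23A1 had reached the minimum through WT alone.

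Genes that make, bind or cut the matrix were taken from 4 further lists, which share some genes with the members. Of 21 tested genes of collagen modification, folding and export, 17 cell surface matrix receptors, 13 integrin adaptors and 9 metalloproteases and their inhibitors, 0 had an unadjusted p under 0.05 in limma, and 1, 0, 0 and 1 with the replicate block, beside 2.39% and 4.05% of all genes tested. Their log2 fold changes had medians of 0.04, 0.01, −0.05 and 0.02, beside 0.0145 for all genes tested. Of these genes 5, 2, 0 and 1 were themselves members. Among the collagen modifiers, PPIB, a prolyl isomerase, was the most abundant at 351 FPKM, and CRTAP, the partner of P3H1, had the smallest p, with a log2 fold change of −0.19, an unadjusted p of 0.0671 and groups that did not overlap. Among the adaptors these were FERMT3, the kindlin of blood cells, at 66.5 FPKM, and ACTN4, an actinin, with an unadjusted p of 0.152. The laminin receptor RPSA, also a ribosomal protein, was the most abundant receptor at 502 FPKM, and integrin β1, ITGB1, was at 17.4, 18.6 and 15.6 FPKM in S34F and 13.9, 18.2 and 9.22 FPKM in WT. The syndecan SDC4 was at 10.8, 11.4 and 12.8 FPKM against 14.2, 14.9 and 13.2 FPKM, without overlap and with an unadjusted p of 0.0535. TIMP1, an inhibitor of metalloproteases, was abundant, at a mean of 327 FPKM, with a log2 fold change of −0.22, an unadjusted p of 0.164 and 0.0284 with the block. TIMP4, a related inhibitor, had the smallest p of its list, with a log2 fold change of −0.47 and an unadjusted p of 0.0532 at a mean of 2.07 FPKM.

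Positions bear on how some values can be read. Of the 84 members, 33 overlap a gene on the opposite strand in GENCODE 29, COL23A1, THBS3, S100A6, HDGF and TGFB1 among them, and whether the counting used strand is not given in the sources used here. LGALS1, APOE and CCN1 overlap none on the opposite strand.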

How the data were processed

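RNA was sequenced by the authors from 6 libraries, 3 S34F and 3 WT, on an Illumina system. The deposited table gives FPKM for 31142 genes, together with fold changes, p-values and q-values of the authors' own comparison, which were not used. The labels name StringTie and edgeR without versions or roles, and the aligner and genome build are not given in the sources used here. No value above 0 is a whole number, so the values were treated as FPKM and no count test was run.

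Groups were taken from the sample titles. FPKM were used as deposited, and limma 3.58.1 in R 4.3.3 was run on log2(FPKM + 1), with its trend of variance on level, over 10942 genes that averaged 1 FPKM or more. A fold change on this scale understates the change of low genes. Adjusted p-values are Benjamini-Hochberg values over all these genes. Single genes were also tested by an exact permutation test. The script was tested on simulated data. The members, the lists of partner and marker genes, their grouping by role and the tests were chosen with earlier results of these data known, and other genes than those of the following rule were named after their values were seen. The rule took the 10 most abundant members, those with an unadjusted p under 0.05, the 5 largest differences in each direction without overlap, the most abundant of each role, the 3 genes on either side of the minimum, and the most abundant gene and the smallest p of each partner list. Alternatives were other pseudocounts, filters and scalings, no trend, robust variances, a replicate block, each library left out, and other bounds of the list.

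Whether replicate numbers pair the libraries was checked by correlating, over genes, their deviations from the group means. The values were 0.212, 0.174 and 0.38 for replicates 1, 2 and 3, and the study speaks of pairs, so the block is given as a paired fit. The crossed pairs of numbers 1 and 2 had 0.197 (the second S34F library) and 0.134 (the first), so the check sets replicate 3 apart and does not tell number 1 from number 2. Gene positions came from GENCODE 29, which held 31002 of the identifiers and all 84 members, and promoters from RefSeq on GRCh38.p14. FPKM keep no read counts, so depths are approximate and fragment numbers cover counting error only. Python 3.11.15 with numpy 2.4.6, pandas 2.3.3 and matplotlib 3.10.9 was used.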

Additional observations from a re-analysis of the deposited data

How the results depend on the processing

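The members' median log2 fold change, −0.0539, stayed negative under all 19 alternatives and ranged from −0.077 to −0.032 with 1 library left out. The members' medians within the 3 pairs of libraries had an SD of 0.0431. For all genes tested the median was 0.0145 in the main fit, and its values under the alternatives are not given here. The 6 members with an unadjusted p under 0.05 became 14 in the paired fit with a replicate block. With 1 library left out they became 4 to 23, and 29 without both libraries of replicate 3, an alternative added after seeing the data. The share of all genes tested rose as well, from 2.39% to 4.05% with the block. It was 10.6% without S34F replicate 3 and 16.9% without both libraries of replicate 3. The 10 members whose groups do not overlap became 12 to 45 with 1 library left out, which fewer libraries raise by construction. Without both libraries of replicate 3 they became 61. Over all genes tested this share was 7.38%, 33.9% without S34F replicate 3 and 51.5% without both. The 0 members with an unadjusted p under 0.05 and a change over 1.5-fold became 2 at a pseudocount of 0.1 and 1 at 0.5. A smaller pseudocount gives low genes larger fold changes. The count was 0 to 3 with 1 library left out, and 4 without both libraries of replicate 3. In the main fit 0.585% of all genes tested passed, and their share at these other settings was not counted. Other pseudocounts, filters, scalings, variance settings and bounds of the list left between 5 and 7 members with an unadjusted p under 0.05. The shares of all genes at these settings are not given here.

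Directions turned for members near 0. With 1 library left out, log2 fold changes ranged from −0.0982 to 0.053 for ANXA2, −0.21 to 0.54 for EGFL7, −0.20 to 0.12 for TGFB1, −0.14 to 0.0702 for COL18A1, −0.30 to 0.13 for AGRN and −0.14 to 0.13 for FBLN2. Without both libraries of replicate 3 they were 0.082 for TGFB1, 0.039 for COL18A1, 0.049 for AGRN and 0.12 for FBLN2. The cause was not tested. With about 21.1 M to 26.6 M fragments a library, 27 of the 84 members had fewer than about 50 fragments in their lowest library, all 14 liver-type members among them, and counting error weighs most on these genes.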
